A study of Mus musculus with 16 samples.

Results

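Adhesion and marrow retention genes encode the surface proteins that hold blood progenitors in the bone marrow, slow leukocytes along vessel walls or draw them into the blood. The 8 genes described here are Itgam, Itgb2, Itga4, Selplg, Cd44, Adgre5, Cxcr4 and Cxcr2. They were chosen by name with earlier results of these data known, among them regions that were higher near Itgam and lower near Cd44 and Adgre5 after interleukin-1β (IL-1β). The values that chose them are thus those of IL-1β against baseline, which are given here as a description. A region is a stretch of open chromatin called as a peak in at least 2 of 16 libraries, and it was counted for a gene when it overlapped the gene body or the 10 kb on either side. The 8 genes held 79 of the 83972 regions of the series, and 30 of these 79 were called in all 16 libraries. The limit of 2 libraries was just met by 3 of the 79 regions, with 13.3 and 18.6 scaled reads in Itgb2, 21.5 and 30.1 in Cd44, and 14 and 18.1 beside Cxcr4. Just outside it, regions called in 1 library numbered 1 at Itgam, 2 at Itgb2, 3 at Cd44, 1 at Adgre5, 2 at Cxcr4 and 1 at Cxcr2. The most distant region counted for Cd44 lay 9995 bp from its body.

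Open chromatin was measured by ATAC-seq, in which the transposase Tn5 cuts and tags accessible DNA, in bone marrow of male C57Bl/6 mice, whose age the labels do not give. Cells positive for lineage markers (Gr1, Ter119, B220, CD4 or CD3) had been depleted, and the labels name the remainder haematopoietic stem cells. The 4 groups were IL-1β-stimulated and baseline cells of mice made diabetic with streptozotocin (STZ), and IL-1β-stimulated and baseline cells of control mice that received no STZ. Each of the 4 diabetic and 4 control mouse samples was split between a stimulated and a baseline library. Stimulated cells were kept for 6 h with 10 ng/mL IL-1β and baseline cells were lysed at once, so IL-1β and time in culture cannot be told apart. STZ was given to every diabetic mouse and to no control mouse, so diabetes and the drug cannot be told apart either. Whether a mouse sample is 1 animal or a pool is not given, and all tests rest on the spread between these samples.

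Integrins are heterodimers of an α and a β chain. Itgam (αM) and Itgb2 (β2) form Mac-1, which binds ICAM-1 and complement fragments on myeloid cells, and Itga4 (α4) binds VCAM-1 and fibronectin, by which progenitors are anchored in marrow. Selplg encodes PSGL-1, the ligand of the selectins, Cd44 is the receptor for hyaluronan, and Adgre5 (CD97) is an adhesion G-protein-coupled receptor that binds CD55. Cxcr4 is the receptor for Cxcl12, which retains progenitors and neutrophils in marrow, while Cxcr2 answers Cxcl1 and Cxcl2 and draws neutrophils out. These are statements about the proteins. The data show where chromatin was open, not how much protein or RNA was made.

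Values are reads at the highest summit of a region, recovered from the deposited peak lists and scaled so that every library had the same median over the 24955 regions called in all 16 libraries. A library held 37543 to 72525 peaks, its median summit over those regions 27 to 58 reads before scaling, and its background 0.856 to 1.71 reads. Diabetic baseline replicate 4 stood apart. It had the lowest background and the lowest median summit of all libraries, and it called 35 of the 79 regions against 51 to 65 in the others. Over all regions of the series it called 48520, inside the range of 34860 to 67481 in the others. Of the 79 regions, 9 were called in 15 libraries, and the missing library was this one in all 9. Regions near stem and progenitor marker genes were called for 10 of 10 genes, and the summed reads of their 12 shared regions, which left out Procr and Slamf1, lay between 404 and 513 in all libraries. Marker genes of cells that the depletion should remove were open as well. Mature neutrophil markers had 26 shared regions over 10 of 11 genes, with none for Ly6g, a target of the Gr1 antibody. The 5 shared regions of B cell genes covered 3 of 5 genes, and the 4 shared regions of T and NK cell genes covered 3 of 7, without Cd3e. Erythroid genes had 12 shared regions over 5 of 7 genes. Stroma and endothelium genes had 4 shared regions over 3 of 6 genes. Mast cell and basophil genes had 0 shared regions. A shared region near a marker gene does not by itself show that cells of that type were present. If the cells were a mixture of types, fewer cells of a type and less open chromatin per cell cannot be told apart.

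The start of 5 of the 8 genes is listed with its strand in RefSeq's promoter table (GRCm38.p6). The 250 bases before the start are shown for 4 of them. Itgam and Cd44 were chosen because mean values after IL-1β were higher at the start region of Itgam and lower at that of Cd44. Only the Cd44 difference had a limma adjusted p below 0.05. Cxcr4 was chosen because its start region was the gene's sole shared region, and Cxcr2 because its window held 2 motif matches. The bases run 5′ to 3′ on the gene's strand, and capitals mark motif matches.
Itgam, chr7:128062390-128062639, plus strand: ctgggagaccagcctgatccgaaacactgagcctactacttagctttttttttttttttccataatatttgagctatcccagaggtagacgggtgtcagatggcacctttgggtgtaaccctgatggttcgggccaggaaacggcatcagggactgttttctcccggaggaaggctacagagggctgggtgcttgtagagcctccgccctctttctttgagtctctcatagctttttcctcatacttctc
Cd44, chr2:102901666-102901915, minus strand: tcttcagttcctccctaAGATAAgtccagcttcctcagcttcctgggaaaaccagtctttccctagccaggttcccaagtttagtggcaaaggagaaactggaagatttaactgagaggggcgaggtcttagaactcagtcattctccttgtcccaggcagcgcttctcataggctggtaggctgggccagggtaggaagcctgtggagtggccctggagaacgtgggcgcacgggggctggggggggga
Cxcr4, chr1:128592300-128592549, minus strand: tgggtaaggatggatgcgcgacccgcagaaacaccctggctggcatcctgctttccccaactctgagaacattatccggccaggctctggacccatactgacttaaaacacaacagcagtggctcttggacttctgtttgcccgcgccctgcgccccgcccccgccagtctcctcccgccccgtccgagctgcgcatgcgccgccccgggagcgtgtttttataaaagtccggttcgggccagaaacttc
Cxcr2, chr1:74153744-74153993, plus strand: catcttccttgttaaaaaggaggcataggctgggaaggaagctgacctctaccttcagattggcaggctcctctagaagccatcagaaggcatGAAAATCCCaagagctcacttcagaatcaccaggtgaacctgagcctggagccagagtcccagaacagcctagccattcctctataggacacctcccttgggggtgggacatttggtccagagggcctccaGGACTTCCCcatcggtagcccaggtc
The 7 motifs were searched on both strands. PU.1 was searched as GAGGAAGT and C/EBP as TTGCNNAA. NF-κB was searched as GGGANTTTC and as GGGAANTCC. The pattern TGANTCA stood for AP-1. For RUNX the letters were TGTGGT. The pattern for GATA factors was AGATAA. None of the matches shown overlapped another. The Cxcr2 window held both NF-κB patterns on the opposite strand, GGGANTTTC from 157 and GGGAANTCC from 26 bases before the start. Among 32851 promoters of the table, windows of the same length held the first in 0.941% and the second in 1.06%. The Cd44 window held 1 GATA match from 233 bases before the start (9.99% of promoters), and the Itga4 window, which is not shown, held 1 RUNX match (14%). The Itgam and Cxcr4 windows held none of the 7 patterns, which says only that these letters are not in these bases. GAGGAAGT was found in 2.44%, TGANTCA in 6.75% and TTGCNNAA in 9.56% of promoters. The called region at the start covered all 250 bases for Cxcr4 and Cxcr2, 142 for Itgam and 108 for Cd44.

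The 79 regions were unevenly spread over the genes. Cd44, whose body spans chr2:102811141-102901669, had 17 regions, of which 5 were called in all libraries. Itgb2 had 16 regions with 6 shared, Selplg 12 with 4 shared, Itgam 11 with 3 shared, Itga4 7 with 2 shared, Cxcr2 5 with 2 shared and Cxcr4 3 with 1 shared. Adgre5 had 8 regions and 7 of them were shared, a share of 87.5% against 38.0% over the 8 genes and 29.7% over all regions. Of the 79 regions, 56 overlapped the body of the gene and 23 lay beside it, and 6 of the 79 were nearest to another gene (Fam207a beside Itgb2, Coro1c beside Selplg, Ddx39a beside Adgre5 and Rufy4 beside Cxcr2). Assignment rests on position alone. The shared regions had a median width of 662 bp and the others 310 bp, close to the 692 and 318 bp of all regions. The highest summit of a shared region lay, in the median region, within 75 bp over all 16 libraries. The widest shift was at Cxcr4. Its start region, chr1:128590683-128592784, was 2102 bp wide with up to 5 summits in a library, and the highest summit moved over 1603 bp between libraries.

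**Figure D1:**
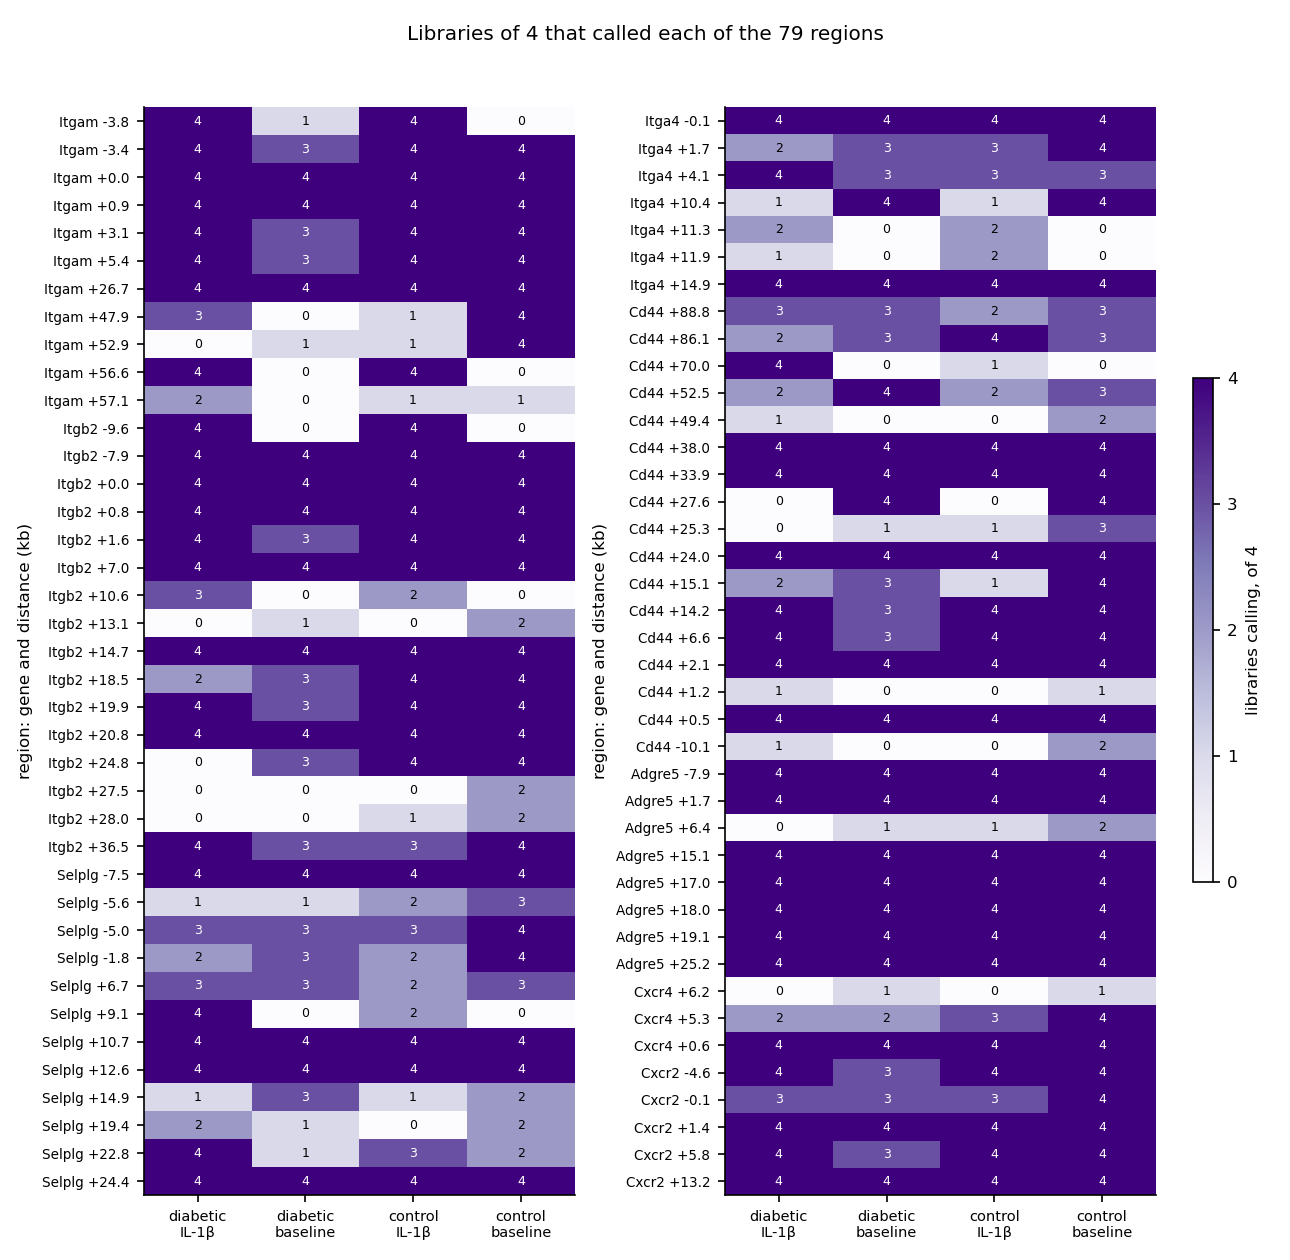
Number of libraries, of 4 in each group (columns), that called each of the 79 regions (rows, named by gene and by distance in kb from the gene's start, or from the body's lower-coordinate end for Itgb2, Selplg and Adgre5, whose strand is not in the table). Darker cells mean more calling libraries. The regions of Itgam at -3.8 and +56.6 kb and of Itgb2 at -9.6 kb are dark in both IL-1β columns, and that of Cd44 at +27.6 kb in both baseline columns.

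At both ends of Itgam and beside Itgb2, regions were called in nearly all IL-1β libraries and in hardly any baseline library, and a region in Cd44 had the opposite pattern. For libraries that did not call such a region no read value could be recovered, which does not mean 0 reads. These regions are thus given as calls, with no test. In all, 0.516% of regions were called in at least 6 more IL-1β than baseline libraries, and 0.941% in at least 6 more baseline than IL-1β libraries. Among the 79 regions, 4 were of the first kind and 2 of the second. Upstream of Itgam, chr7:128058627-128059013 was called in 8 of 8 IL-1β libraries and in 1 of 8 baseline libraries. Its reads were 25.3 to 42.0 in the IL-1β libraries, with a median of 29.2, against 12 in the baseline library that called it. Just past the other end of Itgam, chr7:128118986-128119421 was called in 8 IL-1β and 0 baseline libraries, with 15.9 to 31.0 reads where called. Its calls held with peaks of a −log10 q of at least 5, and with equal numbers of peaks from every library it was called in 7 IL-1β and 0 baseline libraries.

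Beside Itgb2, chr10:77520584-77520908 was called in 8 IL-1β and 0 baseline libraries, with 35.2 to 66.3 reads. It lies 9421 bp outside the Itgb2 body and is nearest to Fam207a. In Selplg, chr5:113826699-113826997 was called in 6 IL-1β and 0 baseline libraries. Those 6 were all 4 diabetic and 2 of the control libraries. With stricter peaks, and with equal numbers of peaks, it was called in 4 IL-1β and 0 baseline libraries, short of the gap of 6. On the other side, chr2:102873860-102874329 in Cd44 was called in 0 IL-1β and 8 baseline libraries, with 15.2 to 30.5 reads where called. In Itga4, chr2:79265685-79265994 was called in 2 IL-1β libraries, with 12.3 and 17.8 reads, and in 8 baseline libraries, with 11 to 21.8 reads. Reads in the calling libraries of both sides overlapped there. With equal numbers of peaks, the Cd44 and the Itga4 region kept 4 baseline calls each and no IL-1β call. Over the series, 34 regions were called in 8 IL-1β and 0 baseline libraries and 30 the other way. A library called 57.8 of the 79 regions on average with IL-1β and 57.4 at baseline. Of all regions of the series, IL-1β libraries called 34860 to 62624 and baseline libraries 46323 to 67481. With equal numbers of peaks, the averages near the 8 genes were 46 with IL-1β and 42.5 at baseline, of 62 regions. They were 47 and 48.5 of 65 with stricter peaks, and 45.4 and 46.9 of 63 within 2 kb of the gene bodies. No region of the 8 genes was called in at least 6 more libraries of one phenotype than of the other, which 0.119% of all regions were.

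**Figure D2:**
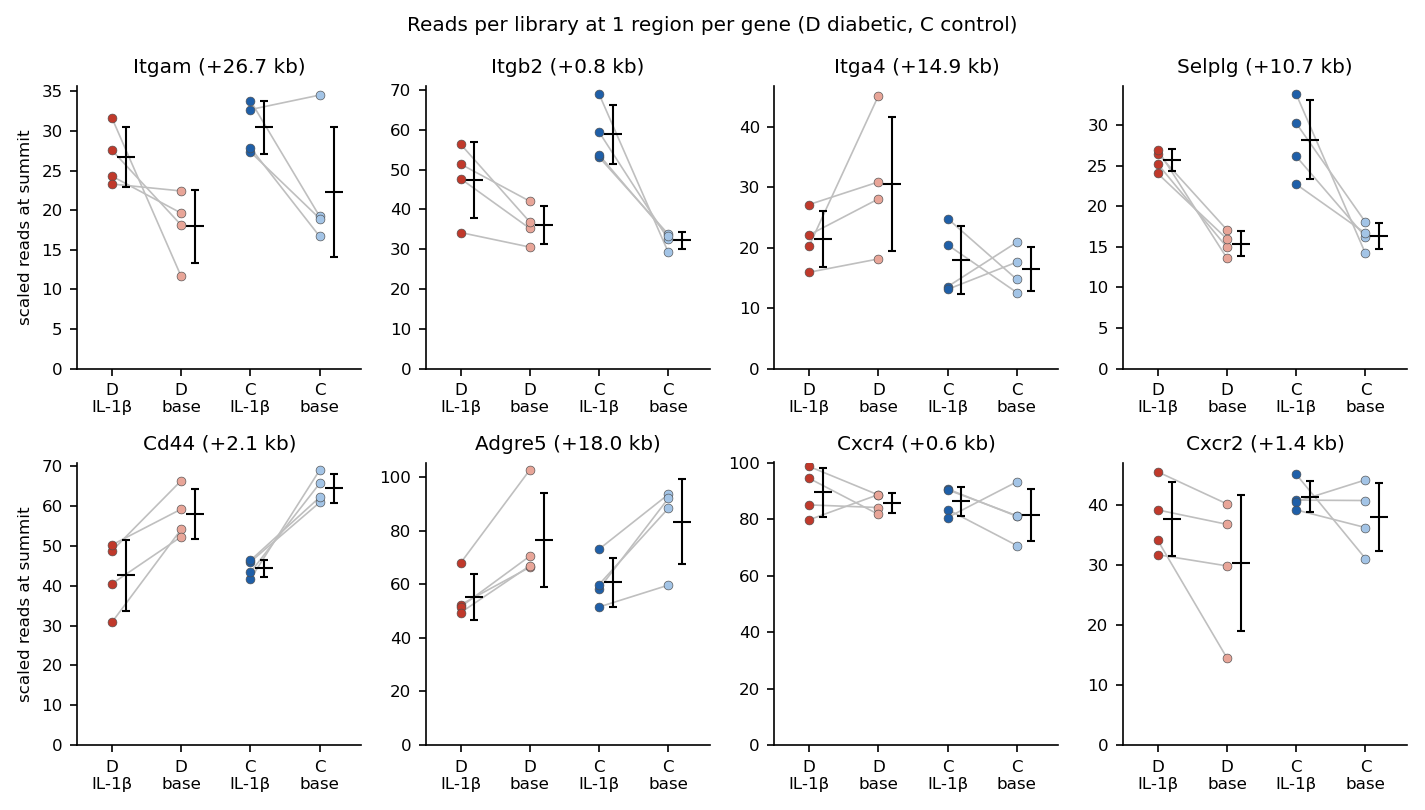
Scaled reads at the summit (vertical axis) in each library, for the shared region of each gene with the largest IL-1β difference, named by its distance in kb as in the plot of calls. Points are libraries, grey lines join both portions of a mouse sample, and black bars are the mean and SD of 4 libraries. For Selplg all IL-1β points lie above all baseline points, and for Cd44 all lie below.

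The 30 shared regions allow reads to be compared in every library. Since the genes were chosen with this comparison known, the IL-1β values that follow describe the choice and carry no test. In the fit over all 24955 shared regions (limma, Benjamini-Hochberg adjusted p below 0.05), 6.42% were higher and 3.4% lower after IL-1β. Of the 30 regions, 7 were called higher, 4 of them of Itgb2, 2 of Selplg and 1 of Itgam. Another 6 were called lower, 4 of Adgre5 and 2 of Cd44. None of the 5 regions of Itga4, Cxcr4 and Cxcr2 was called with all libraries. With the mouse sample as a block in the fit, 11 were called higher and 7 lower of the 30, and 2400 higher and 1294 lower of all regions against 1603 and 848 without it. Counts depended on diabetic baseline libraries as well. Without replicate 1, 11 of the 30 were higher and 6 lower, beside 1874 higher and 818 lower of all regions. Without replicate 4, 9 of the 30 were higher and 8 lower, beside 2775 higher and 1473 lower of all regions. With libraries scaled by their background reads, the median of all shared regions moved to -0.24, against 0.03 with equal medians. Of the 30, 0 were then called higher and 8 lower, beside 203 higher and 2343 lower of all 24955 shared regions. Background scaling lowers every IL-1β log2 difference by the same amount, which is smaller than every called rise. No called region could therefore change sign, and falls could only deepen. Of the 13, 6 were called again, all of them lower.

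All 9 shared regions of the integrin genes Itgam and Itgb2 had higher mean values with IL-1β. At the start of Itgam, chr7:128062498-128062849 had a lowest, median and highest value of 36.8, 47.6 and 62.3 scaled reads with IL-1β, against 23.3, 38.4 and 43.3 at baseline. The log2 difference was 0.36 (SE 0.13). A second region 0.9 kb inside, chr7:128063201-128063783, had 45.6, 56.9 and 69.0 reads with IL-1β and 18.9, 46.6 and 54.3 at baseline, higher in 8 of 8 mouse samples. Neither was among the called regions. Without diabetic baseline replicate 4, the library with 18.9 reads, the second had a log2 difference of 0.24, against 0.41 with all libraries, and was called. The third, 26.7 kb inside the gene at chr7:128089068-128089690, was called, with 23.3, 27.7 and 33.8 reads with IL-1β and 11.6, 19.1 and 34.5 at baseline. The sides overlap through control baseline replicate 1, the only baseline library above 22.4 reads. The log2 difference was 0.55 (SE 0.16). It was 0.60 (SE 0.23) in diabetic and 0.50 (SE 0.23) in control samples.

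All 6 shared regions of Itgb2 had a positive log2 difference, from 0.13 to 0.62. The region at the body's lower end, chr10:77530029-77530604, averaged 74.2 ± 11.7 reads with IL-1β and 52.5 ± 13.4 at baseline (SD, n = 8 each), a log2 difference of 0.54 (SE 0.14). The largest difference lay next to it, at chr10:77530676-77531540, with 34.2, 53.4 and 69.0 reads with IL-1β against 29.2, 33.6 and 42.1 at baseline and a log2 difference of 0.62 (SE 0.11). Values were higher with IL-1β in 8 of 8 mouse samples in both regions, and the sides overlap. In the fit that also took regions called in at least 12 libraries, a further Itgb2 region, chr10:77531643-77532184, had a log2 difference of 0.81 (SE 0.10). That region was not called in diabetic baseline replicate 4. The tallest Itgb2 region, chr10:77550757-77551414, had 96.1, 103.9 and 119.0 reads with IL-1β against 80.2, 92.6 and 126.8 at baseline (log2 difference 0.13, SE 0.09).

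Marker genes of mature neutrophils, which carry much Mac-1, were looked at beside these values. The summed reads of their 26 shared regions were 1217 to 1670 with IL-1β and 909 to 1530 at baseline. In diabetic sample 1 (1452 against 1528) and control sample 1 (1474 against 1480) the sum was lower with IL-1β, and in the others higher. Of the 26, 4 were called higher and 1 lower after IL-1β, or 1 higher and 3 lower when scaled by background. For the 16 shared regions of monocyte and macrophage genes the sums were 522 to 626 with IL-1β and 465 to 574 at baseline, higher with IL-1β in 8 of 8 mouse samples, with 2 regions called higher and 0 when scaled by background. The 5 shared regions of B cell genes summed to 259 to 333 with IL-1β and 223 to 277 at baseline, also higher in 8 of 8 mouse samples, with 1 called higher and 0 when scaled by background. Stem and progenitor genes had 0 of 12 regions called in either direction, with sums of 406 to 481 with IL-1β and 404 to 513 at baseline. The 4 shared regions of stroma and endothelium genes summed lower with IL-1β in every mouse sample, at 84 to 124 against 103 to 145 at baseline. None of these 4 was called, and 2 were called lower when scaled by background. The part of a shift in cell types in the Itgam and Itgb2 values was not tested.

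For Itga4, the α chain that binds VCAM-1, the values turned on diabetic baseline replicate 4, and neither shared region was called with all libraries. Its start region, chr2:79254623-79256018, had 74.4, 85.2 and 108.9 reads with IL-1β and 68.4, 71.8 and 138.1 at baseline, a log2 difference of 0.14 (SE 0.11). The highest baseline value is that of diabetic replicate 4, and without it the difference was 0.25 and the region was called higher. The other shared region, chr2:79270074-79270601, 14.9 kb inside the gene, had a log2 difference of -0.18 (SE 0.19), or -0.08 without that library.

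Selplg, the selectin ligand, had the largest difference of the 30 regions. At chr5:113828184-113828849, inside the gene body, reads were 22.7, 26.3 and 33.8 with IL-1β and 13.6, 16.1 and 18.1 at baseline. Every IL-1β library lay above every baseline library. The means were 27.0 ± 3.6 and 15.9 ± 1.5 (SD, n = 8 each), and the log2 difference was 0.76 (SE 0.13), a ratio of 1.70. It was 0.74 (SE 0.18) in diabetic and 0.78 (SE 0.18) in control samples. Before scaling, this region had 19 to 37 reads with IL-1β and 11 to 24 at baseline, and its highest summit moved over 276 bp between libraries. Its mean −log10 q was 4.96, so it was not in the fit limited to peaks of at least 5. The neighbouring region chr5:113830131-113830704 had a log2 difference of 0.43 (SE 0.12), and the remaining pair, which lie outside the body, had 0.18 and 0.23. The 0.18 became 0.02 without diabetic baseline replicate 4. The region at the body's upper end, chr5:113832570-113832870, was called in only 7 libraries.

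Cd44, the hyaluronan receptor, had negative log2 differences in all 5 shared regions. At its start, chr2:102900582-102901773, reads were 49.4, 60.6 and 78.5 with IL-1β and 74.3, 78.4 and 86.6 at baseline, a log2 difference of -0.37 (SE 0.08). The region next to it, 2.1 kb inside the gene at chr2:102899029-102900049, had 30.8, 44.7 and 50.3 reads with IL-1β against 52.3, 61.6 and 69.1 at baseline, without overlap. The log2 difference was -0.50 (SE 0.09), a ratio of 0.706, and the value was lower with IL-1β in every mouse sample. Deeper in the gene the differences were -0.16, -0.32 and -0.01 at 24.0, 33.9 and 38.0 kb. Without diabetic baseline replicate 4 they were -0.27, -0.38 and -0.09, and the second was then called lower. The region called in baseline libraries alone lay between the first and the second of these.

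Adgre5, which encodes CD97, also had lower values, over 5 neighbouring regions. Between chr8:83738079 and chr8:83749326 their log2 differences ran from -0.32 to -0.45. The largest, chr8:83740840-83741603 at the body's upper end, had 49.4, 55.3 and 73.1 reads with IL-1β and 59.7, 79.4 and 102.7 at baseline, lower with IL-1β in 8 of 8 mouse samples although the sides overlap. The log2 difference was -0.45 (SE 0.11), with -0.46 (SE 0.16) in diabetic and -0.45 (SE 0.16) in control samples. The 2 regions at the other end were not called. At chr8:83724700-83725155, which overlaps the bodies of Adgre5 and Ddx39a, the difference was -0.02 (SE 0.20) with all libraries and -0.23 without diabetic baseline replicate 4, which had 10.2 reads there. At chr8:83714879-83715733, which is nearest to Ddx39a, the difference was 0.10 (SE 0.07).

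None of the shared regions of the chemokine receptors was called. The broad Cxcr4 start region had 79.8, 87.7 and 98.7 reads with IL-1β and 70.7, 82.9 and 93.2 at baseline, a log2 difference of 0.07 (SE 0.07). In the Cxcr2 region 1.4 kb inside the gene, chr1:74154947-74155922, reads were 31.8, 39.9 and 45.6 with IL-1β and 14.5, 36.6 and 44.3 at baseline (log2 difference 0.27, SE 0.16). Without diabetic baseline replicate 4, which held the 14.5, the difference was 0.10. The other shared Cxcr2 region, chr1:74166787-74167528, had a difference of -0.08 (SE 0.15), or -0.23 without that library. The region that covers the printed Cxcr2 promoter bases, chr1:74153606-74154113, was called in 13 libraries.

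**Figure D3:**
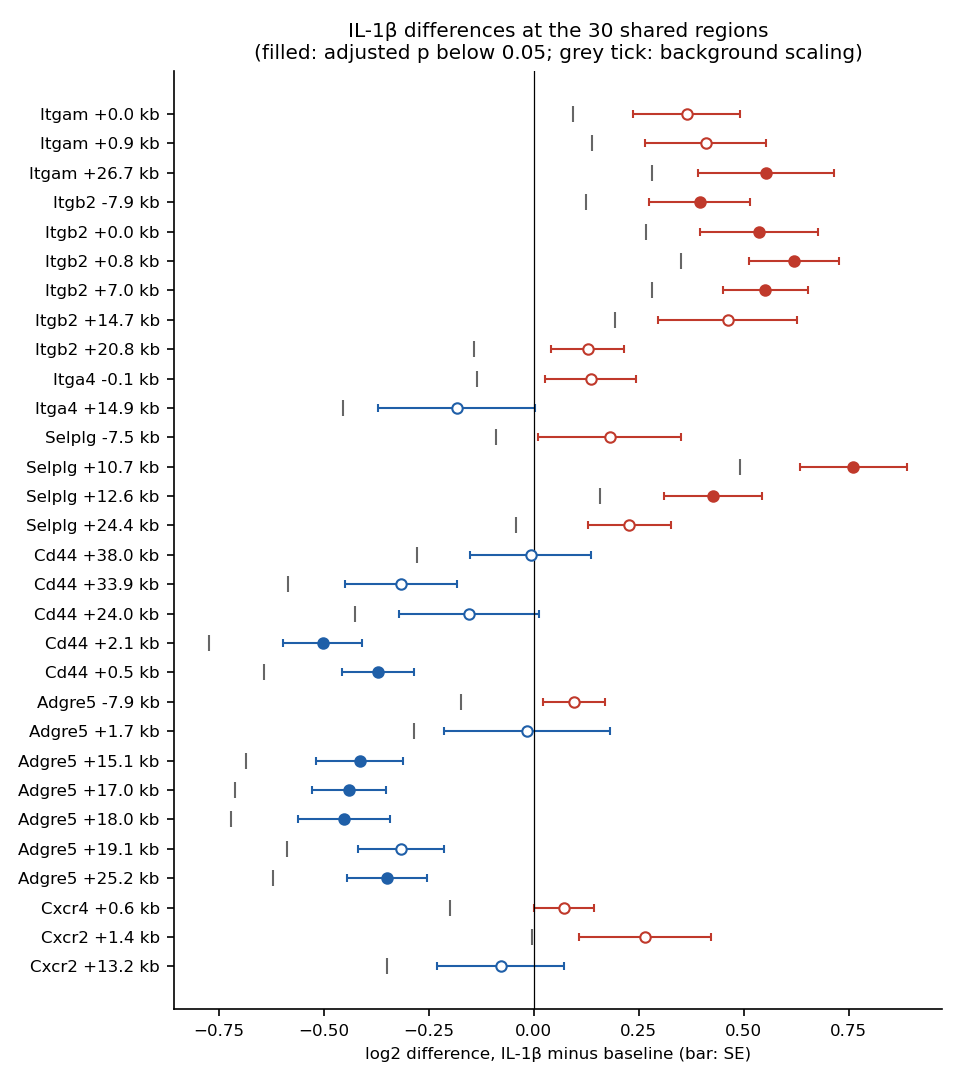
Log2 difference, IL-1β minus baseline (horizontal axis, bars are the SE), at each of the 30 shared regions (rows, gene and distance in kb). Filled points had a limma adjusted p below 0.05 over all regions, and grey ticks are the same differences with libraries scaled by background. Itgam, Itgb2 and Selplg lie to the right of 0, and Cd44 and Adgre5 mostly to the left.

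Genes whose shared regions followed the Selplg and the Cd44 region most closely over the 16 libraries were looked up as a description, since all such values share libraries, depth and the IL-1β groups. Regions in Dgkz, Card19 and Mefv had Pearson's r of 0.95, 0.95 and 0.95 with the Selplg region. For the Cd44 region the closest were in Senp6 (r 0.92) and nearest to Sgip1 and Eea1 (r 0.90 and 0.89).

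Diabetic and control mice were compared next, a contrast that the choice of genes did not use. The largest differences between diabetic and control baseline cells were a higher value in Itga4 and a lower one in Cd44, but no region passed the test. Of the 24955 shared regions, 0% were called at baseline and 0% after IL-1β (limma), so the 0 of 30 called here equals the share over all regions. At an unadjusted p below 0.05, limma gave 1766 higher and 1177 lower of all regions at baseline, and 2 higher and 4 lower of the 30. In Itga4, chr2:79270074-79270601 had 18.1, 30.8, 28.0 and 45.1 reads in diabetic and 12.6, 20.9, 17.6 and 14.7 in control baseline libraries, and the groups overlap. The log2 difference was 0.84 (SE 0.26, limma adjusted p = 0.423). In Cd44, chr2:102863400-102863972 had 28.2, 20.6, 20.03 and 14.5 reads in diabetic and 30.6, 31.7, 38.6 and 33.4 in control baseline libraries, with every diabetic below every control library. This region was picked as the largest fall of the 30, and such separations were not counted over all regions. The difference was -0.72 (SE 0.20, limma adjusted p = 0.423). After IL-1β the same region differed by -0.36 (SE 0.20).

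The balance of signs at baseline moved with diabetic baseline replicate 4. With all libraries, 9 of the 30 were higher and 21 lower in diabetic cells, with a median of -0.15 against 0.07 over all shared regions. Without that library, 15 were higher and 15 lower, with a median of 0.00, and the smallest limma adjusted p over the 30 was 0.966. In the Itgam region 0.9 kb inside the gene, reads were 50.3, 46.7, 46.5 and 18.9 in diabetic and 44.0, 54.3, 44.7 and 50.1 in control baseline libraries. The difference of -0.34 (SE 0.20) became -0.01 without replicate 4. At the lower end of Itgb2 it was -0.23 with and 0.08 without that library, and in Cxcr2 1.4 kb inside the gene -0.42 with and -0.09 without it. The Itga4 and Cd44 differences named above were 0.63 and -0.56 without it. Mature neutrophil genes moved alongside. Their summed reads were 1528, 1215, 1274 and 909 in diabetic and 1480, 1530, 1354 and 1501 in control baseline libraries, and the 909 belongs to replicate 4. Erythroid genes stood the other way, with 440, 648, 588 and 804 in diabetic and 396, 592, 478 and 498 in control baseline libraries. The part of these shifts in the differences was not tested.

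After IL-1β, 10 of the 30 were higher and 20 lower in diabetic than in control cells, from -0.36 to 0.28, with a smallest limma adjusted p of 0.970. Over all shared regions 15007 were higher and 9948 lower. All regions gave 734 higher and 352 lower at an unadjusted p below 0.05, and the 30 gave 0 and 1. The 1 region was chr10:77530676-77531540 of Itgb2, with 47.7, 51.4, 56.4 and 34.2 reads in diabetic and 53.2, 69.0, 59.5 and 53.7 in control IL-1β libraries (log2 difference -0.33, SE 0.15). The groups overlap. Summed reads of mature neutrophil genes did not overlap there, at 1452, 1396, 1348 and 1217 in diabetic and 1474, 1670, 1515 and 1503 in control IL-1β libraries, and their part in the Itgb2 difference was not tested. With libraries scaled by background the median of all shared regions moved to -0.15 at baseline, against 0.07 with equal medians, and to -0.21 after IL-1β, against 0.04. Of the 30, 27 and 29 were then lower in diabetic cells at baseline and after IL-1β, with none called. Of the 24955 shared regions, 19645 and 21882 were lower too.

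**Figure D4:**
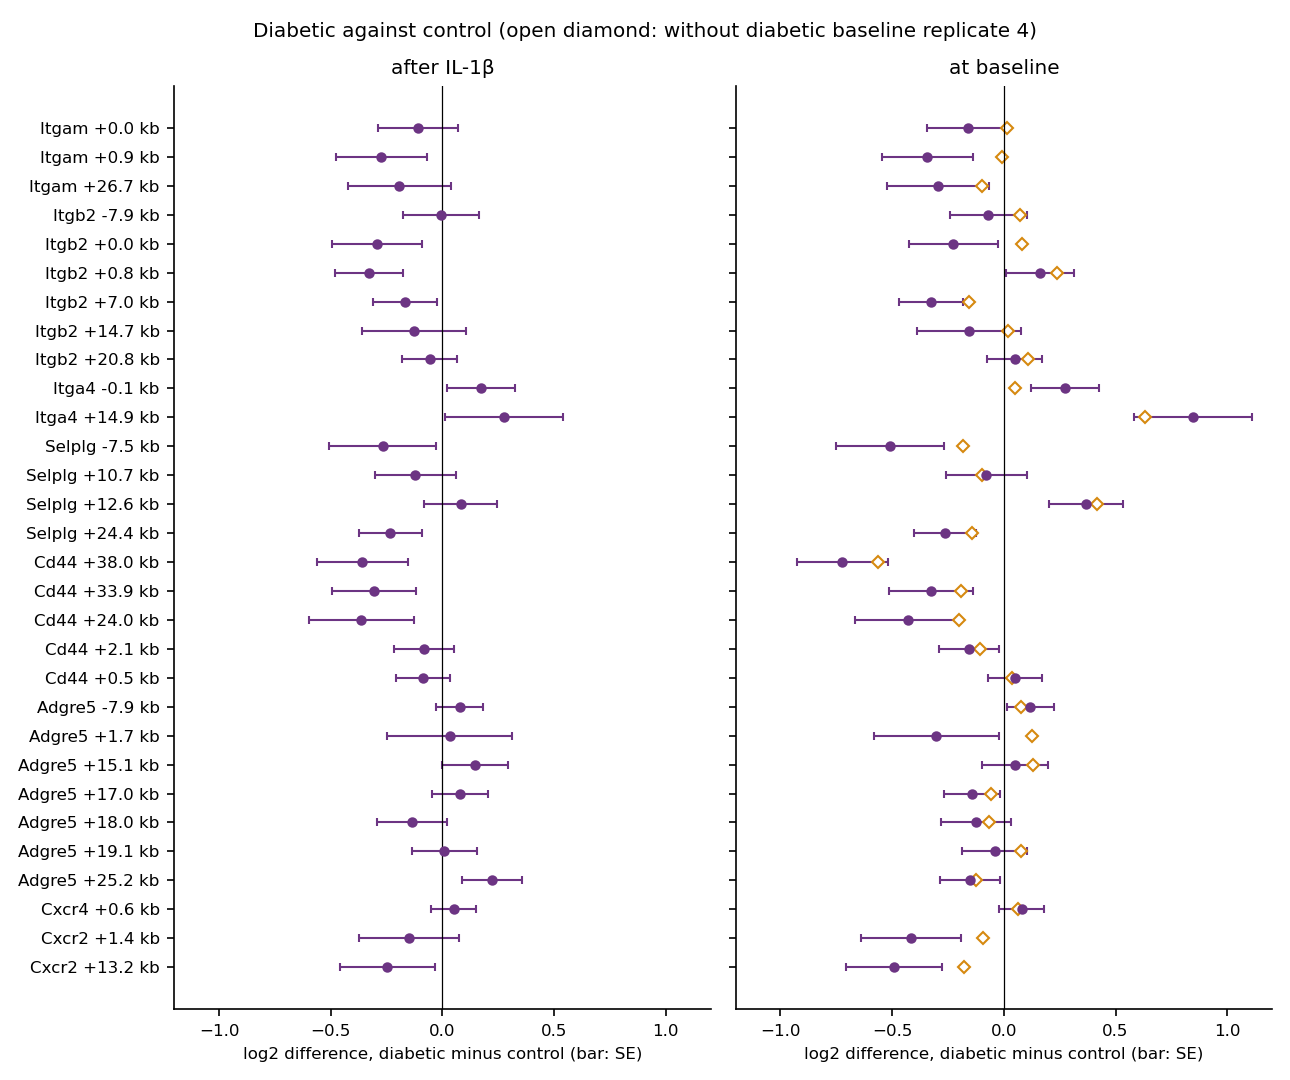
Log2 difference, diabetic minus control (horizontal axes, bars are the SE), at the 30 shared regions after IL-1β (left) and at baseline (right). Open diamonds show the baseline difference without diabetic baseline replicate 4, which brings the regions of Itgam and Cxcr2 nearer to 0.

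Whether the IL-1β change differed between the phenotypes was tested as an interaction. None of the 30 and 0% of all shared regions passed (limma, smallest adjusted p over the 30 = 0.9998), with 229 higher and 187 lower of all regions and 0 and 1 of the 30 at an unadjusted p below 0.05. The 1 was again the Itgb2 region beside the body's lower end. Its IL-1β difference was 0.38 (SE 0.15) in diabetic and 0.86 (SE 0.15) in control samples, and these differed by -0.49 (SE 0.22). In Adgre5, chr8:83747611-83749326 had -0.16 (SE 0.13) in diabetic and -0.54 (SE 0.13) in control samples, a difference of 0.37 (SE 0.19). For the Selplg and Cd44 regions with the largest IL-1β differences the interaction was -0.04 (SE 0.26) and 0.07 (SE 0.19). The signs of the interaction also turned with diabetic baseline replicate 4, from 19 positive and 11 negative with all libraries to 7 positive and 23 negative without it. With all libraries, 11321 of all shared regions were positive and 13634 negative.

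Other adhesion genes were taken from 6 lists, which were also set up with earlier results of these data known. They held 77 genes, 76 of them with a region, and 163 shared regions outside the 8 genes. After IL-1β, 24 regions rose and 5 fell (limma adjusted p below 0.05), or 14.7% and 3.07%, beside 6.42% and 3.4% of all shared regions. Scaled by background, 4 rose and 18 fell, beside 203 risen and 2343 fallen of the 24955 shared regions. The list of integrin activation genes, which switch integrins to their binding state from inside the cell, had 12 risen and 1 fallen of 44 regions, but 2 risen and 1 fallen when scaled by background. The 12 lay in 4 of its 11 genes, 6 in Apbb1ip, 3 in Fyb, 2 in Vav1 and 1 in Rasgrp2. In Apbb1ip, which encodes RIAM and carries talin to integrins, a region averaged 75.3 ± 11.5 reads with IL-1β and 44.8 ± 9.7 at baseline (SD, n = 8 each). The log2 difference was 0.76 (SE 0.11). Regions in Vav1 and Rasgrp2, both exchange factors for small GTPases, rose by 0.58 and 0.51 on the log2 scale, and 1 in Vcl (vinculin) fell by 0.28 on the log2 scale.

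Among other surface adhesion molecules, 5 of 37 regions rose and 2 fell, and 2 rose and 8 fell when scaled by background. The largest rise was in Adgrg1 (GPR56, of the same receptor class as Adgre5), with 33.4 ± 4.7 reads with IL-1β and 16.1 ± 3.1 at baseline, without overlap, a log2 difference of 1.06 (SE 0.14). It also lies within 10 kb of Adgrg3 and was counted once. Another region in Adgrg1 fell by 0.66 on the log2 scale. A region 5736 bp beside F11r (JAM-A, a junction protein) had a difference of 0.97 (SE 0.18) and 1 in Spn (CD43, a surface sialomucin) 0.70 (SE 0.13). Of 31 regions of other integrin subunits, 2 rose and 1 fell, and 0 rose and 2 fell when scaled by background. The fall with equal medians was in Itga5, the α chain of a fibronectin receptor, with 22.0 ± 2.3 reads with IL-1β and 38.2 ± 7.7 at baseline (log2 difference -0.77, SE 0.14). One of the rises, by 0.61 on the log2 scale, lay in the same gene. The rise counted for Itgb7, a partner chain of Itga4, lay 9941 bp outside its body and nearest to Rarg.

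Of 23 regions of selectins and of enzymes that build the glycans selectins bind, 3 rose and 1 fell, and 0 rose and 4 fell when scaled by background. A region in Gcnt1, a branching enzyme of selectin ligands, rose by 0.62 on the log2 scale. A region 6770 bp beside the sialyltransferase gene St3gal4, nearest to Dcps, rose by 0.53 on the log2 scale, and 1 in St3gal6, a related enzyme, fell by 0.45 on the log2 scale. Of 23 regions of chemoattractant receptors 2 rose, against 0 risen and 3 fallen when scaled by background. Both rises were counted for the complement receptor gene C5ar1, and the larger, which overlaps the body of C5ar2, had a difference of 0.55 (SE 0.14). Niche ligands, marrow partners of such receptors, had 5 shared regions and none was called. Cxcl12, the ligand of Cxcr4, had no region. Between diabetic and control cells 0 of the 163 regions passed (limma, smallest adjusted p = 0.423 at baseline and 0.970 after IL-1β). At an unadjusted p below 0.05, 7 were higher and 6 lower at baseline, and 5 higher and 2 lower after IL-1β.

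**Figure D5:**
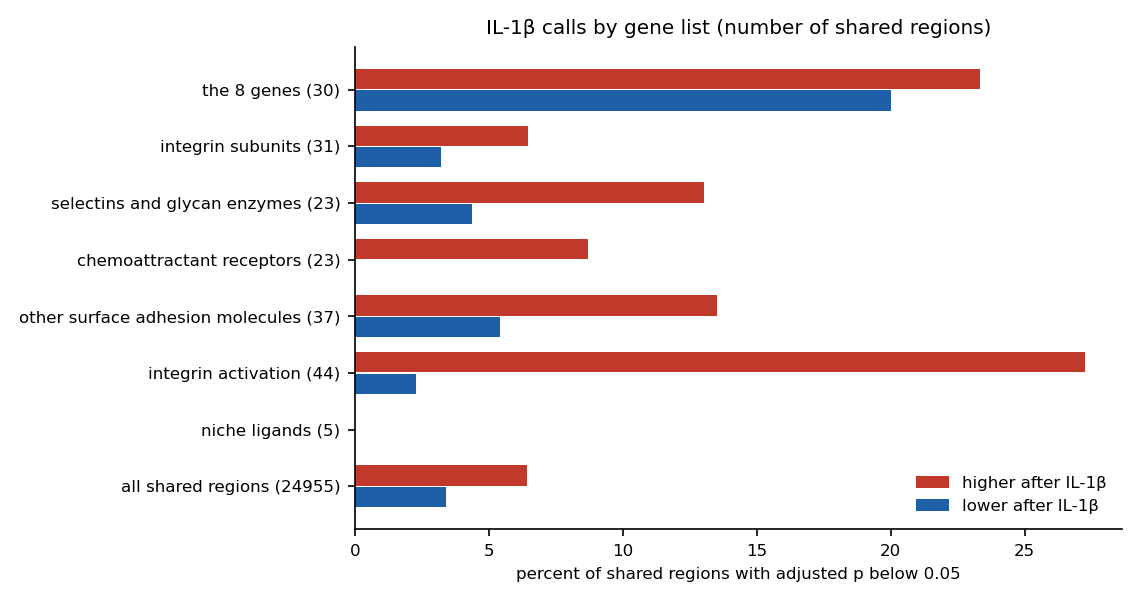
Percent of shared regions with a limma adjusted p below 0.05 after IL-1β (horizontal axis), higher in red and lower in blue, for the 8 genes, 6 lists of other adhesion genes and all shared regions (numbers of regions in brackets). The 8 genes were chosen with this comparison known, so their bars describe the choice. Integrin activation genes had 12 of 44 regions higher, or 2 when libraries were scaled by background.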

How the data were processed

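ATAC-seq fragments over 1200 bp were removed and libraries sequenced as 50-bp single reads from 50000 cells, per the labels' protocols. The submitters' processing notes name the build mm10, MACS2 2.1.1, Bowtie2 2.2.6, edgeR, DiffBind 2.4.8, FastQC 0.11.3 and Trim Galore 1.8. They give no role or order. Read shifting and duplicate removal are not given in the sources used here. The deposited files are 1 narrowPeak list per library, in which the authors' peak caller gave each summit a score, a fold over background (a ratio), and −log10 p and q values. Background reads were solved per library from the deposited fold and −log10 p values, since the fold is (reads + 1) / (background + 1) and p is Poisson. Whole reads were recovered at 99.9987% to 100% of summits, within 0.001. No RNA was measured, and recovered reads exist only where a peak was called.

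Peaks of the 16 libraries were merged where they overlapped or touched, and a region needed calls in at least 2 of them. Gene bodies came from RefSeq (GRCm38.p6), and regions within 10 kb were counted. Reads at the highest summit were scaled to equal medians over the 24955 regions called in all 16 libraries, logged to base 2 without a pseudocount and fitted with limma 3.58.1 in R 4.3.3 (4 group means, trended empirical Bayes), with Benjamini-Hochberg adjustment over all regions and a threshold of 0.05. Taking only regions called in every library leaves out those without a peak in some. Other work used Python 3.11.15. The alternatives tried were background scaling, cyclic loess, regions called in at least 12 libraries, the sum over summits, stricter peaks, the mouse as a block and each library left out. A count model was not run because reads are missing wherever no peak was called.

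The genes, the lists and the recovery of reads were chosen with earlier results of these data known. Regions named in full were, for each gene, that at the start, the shared region with the largest IL-1β difference and those called in at least 6 more libraries of one side, and, for each other list, up to 3 genes with the largest rise and 3 with the largest fall. For likeness, the 3 best-correlated genes were named. Some genes that these rules would name are not reported here. Other regions, such as those with the largest phenotype differences, Fyb and the second regions of Adgrg1 and Itga5, were chosen after their values were seen. Numbers pair the 2 portions of a mouse sample because both came from 1 mouse sample, according to the design text. Equal numbers in the diabetic and the control mice are different animals. The correlation of the portions' deviations was 0.40, 0.19, -0.04 and 0.33 in diabetic and 0.42, 0.36, 0.01 and 0.07 in control samples 1 to 4. The p-values of the main fit measure the spread between mouse samples within a group. That fit does not use the pairing, which only the fit with the mouse as a block does.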

Additional observations from a re-analysis of the deposited data

Results flagged for a closer look

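Of 48 groups of 4 libraries examined, 5 held a library far from the other 3 by Dixon's criterion, which chance does in about 1 group of 20. In the Itgam region 0.9 kb inside the gene, diabetic baseline replicate 4 had 18.9 scaled reads, against 46.5 to 50.3 in the other diabetic baseline libraries. In the Itgam region 26.7 kb inside the gene, control baseline replicate 1 had 34.5, against 16.7 to 19.2 in the others of its group. In the Adgre5 region at the body's upper end, replicate 1 stood apart in 3 groups. It had 67.9 in the diabetic IL-1β group, against 49.4 to 52.3, 102.7 in the diabetic baseline group, against 66.4 to 70.5, and 59.7 in the control baseline group, against 88.3 to 93.5. The diabetic and the control replicates 1 are different mouse samples.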

How the results depend on the processing

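No region of the 8 genes was called between diabetic and control cells or in the interaction under any alternative run, and over all regions the sole call was 1 lower interaction when reads were summed over summits. For IL-1β against baseline, background scaling gave 0 of the 30 regions higher, and 203 of all regions higher and 2343 lower. Taking regions called in at least 12 libraries widened the test to 40976 regions, of which 2551 were higher and 1258 lower. Of 46 such regions of the 8 genes, 9 were higher and 6 lower. With the mouse as a replicate block, 11 of the 30 and 2400 of all regions were higher and 1294 of all lower, against 7, 1603 and 848 without it, and all 13 regions called without the block were called with it. Leaving out 1 library at a time gave 5 to 11 higher and 5 to 8 lower of the 30, and 1243 to 2775 higher and 639 to 1473 lower of all regions. Both highest counts over all regions came without diabetic baseline replicate 4. The 11 came without diabetic baseline replicate 1, where 1874 of all regions were higher. Background scaling moved 7 of 12 named log2 differences by more than 1 SD. It shifts all differences of a comparison equally, by less than each called IL-1β rise, so no called value could change sign. The causes of these shifts were not tested. Reads per summit limit the precision of low regions, and a region that was not called has no value rather than 0 reads.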
